A study of Mus musculus with 35 samples.

Results

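The genes described here were chosen as markers of the direct-pathway medium-spiny neurons (MSNs) of the mouse striatum. They were taken from the deposited count table by symbol, as Drd1 (written Drd1a in the table), Tac1, Isl1, Chrm4, Eya1, Sfxn1 and Ebf1. These 7 symbols held 8 of the 39109 entries of the table, since Ebf1 has both a full entry and a short one of 457 bases inside it. The short Ebf1 entry held between 2 and 30 counts per library and is reported apart from the 7 full entries. All 8 entries passed the filter on low counts in each comparison, the short entry in some of them through 1 group only.

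RNA sequencing was performed on the striatum of 35 mice aged 21.7 to 23 weeks, 1 library per mouse. The mice carried either 2 normal huntingtin alleles (Htt+/+) or 1 knock-in allele with an expanded CAG repeat of 110 to 144 units (HttQ111/+), each with normal Hdac2 (Hdac2 WT) or with Hdac2 deleted in MSNs (Hdac2 KO). In Hdac2 KO mice both Hdac2 alleles were floxed and a Cre transgene (D9-Cre) was driven by the promoter of Ppp1r1b, which is active in MSNs after the first weeks of life, so that other striatal cells kept Hdac2. The groups held 8 Htt+/+ Hdac2 WT, 7 HttQ111/+ Hdac2 WT, 9 Htt+/+ Hdac2 KO and 11 HttQ111/+ Hdac2 KO mice. No Hdac2 WT mouse carried Cre, so Cre and loss of Hdac2 cannot be told apart. The Hdac2 WT mice were recorded with 2 floxed alleles as well, apart from 2 Htt+/+ mice recorded with 1 floxed allele. The knock-in line was on C57BL/6J (spelled C57B6/J in the labels). The floxed line came from a mixed C57BL/6 and 129SeEv background and was then crossed to C57BL/6J.

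The striatum sends its output through a pair of MSN classes that differ in their targets and receptors. Direct-pathway neurons project to the output nuclei of the basal ganglia, respond to dopamine through the D1 receptor, which raises cyclic AMP, and release substance P and dynorphin. Indirect-pathway neurons carry the D2 dopamine receptor and an adenosine receptor and release enkephalin. HDAC2 is a class I histone deacetylase, which removes acetyl groups from histones, and MSNs are the cells most affected in Huntington's disease.

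Of the 7 genes, Drd1 encodes the D1 dopamine receptor and Chrm4 the M4 muscarinic acetylcholine receptor, which opposes D1 signalling in the same neurons. Tac1 encodes the precursor of the tachykinin peptides, substance P among them. Isl1 and Ebf1 encode transcription factors that act in the development of direct-pathway neurons, and Eya1 encodes a phosphatase that works as a transcriptional co-activator. Sfxn1 encodes a mitochondrial carrier that takes up serine.

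Each library held between 50970712 and 77867348 counts (median 57322618), and each of the 7 genes had at least 377 counts in every library. The part of counting error in the spread between mice was not tested. Levels are given as counts per 1000000 counts of the library after TMM scaling (CPM). Fold changes come from edgeR's quasi-likelihood fit with 9 surrogate variables, which are estimated hidden sources of variation between libraries, and adjusted p-values are Benjamini-Hochberg values over every gene in the fit. CPM values are not corrected for the surrogate variables, so the fitted change can depart from the ratio of the CPM means. All p-values measure the spread between mice of these groups. In this bulk tissue, fewer neurons of a class and less RNA per neuron cannot be told apart. Any other striatal cells that express a gene of the list also add to its value, and their part was not tested. Hdac2 itself, counted over the whole gene and in all cells of the tissue, ranged from 97.2 to 106 CPM in Htt+/+ Hdac2 WT and from 89.7 to 99.4 CPM in Htt+/+ Hdac2 KO, and from 95.1 to 112 CPM in HttQ111/+ Hdac2 WT and from 89.5 to 101 CPM in HttQ111/+ Hdac2 KO. Its fitted log2 change on Hdac2 KO was −0.09 (adjusted p = 0.0552, edgeR) in Htt+/+ and −0.12 (adjusted p = 0.00198, edgeR) in HttQ111/+ mice. The study reported that reads over the floxed exons were depleted in Hdac2 KO mice and that MSNs lost HDAC2 protein. The whole-gene count also takes in the parts of the gene that Cre leaves in place. It therefore does not measure the extent of the deletion.

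Some libraries stood apart. The summed level of 5 markers of cortical projection neurons (Slc17a7, Neurod6, Neurod2, Tbr1 and Fezf2) was 412 CPM in HttQ111/+ Hdac2 WT replicate 7, 163 CPM in Htt+/+ Hdac2 KO replicate 6 and 129 CPM in Htt+/+ Hdac2 KO replicate 2, against 5.85 to 84.6 CPM in the others, and none of the 5 markers was at 0 in any group. In addition, Htt+/+ Hdac2 WT replicate 8 and Htt+/+ Hdac2 KO replicate 4 lay above the rest of their groups in Sfxn1. The RNA of 20 Hdac2 KO and 15 Hdac2 WT libraries was extracted on 6 dates, and only 2 Hdac2 KO libraries were extracted on a date that also had Hdac2 WT libraries. The first letter of the mouse ID (A, V or Z, called the ID series below) went with the repeat length: the 8 HttQ111/+ mice of series V had 131 to 144 repeats and the 10 of series A and Z had 110 to 118. Where leaving out these libraries, or fitting the date or the series, ended a call or moved its value by much, that value is given beside the result.

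Per kilobase of annotated exon, Drd1 was the highest of the 7 genes in Htt+/+ Hdac2 WT striata, at a mean of 123 CPM per kb, and was followed by Tac1 at 88.7 CPM per kb. Chrm4 came next at 46.3 CPM per kb, a value that is uncertain and may be too high. The annotated exons used for it hold only 1440 bases and lack a 5′ exon, while its counts cover an interval of 6500 bases. Sfxn1 had 10.9 and Isl1 4.61 CPM per kb. Eya1 and Ebf1 were lowest, at 1.23 and 1.16 CPM per kb, and did not differ from each other beyond their spread. In HttQ111/+ Hdac2 KO striata the means of the leading pair were 106 CPM per kb for Drd1 and 109.7 CPM per kb for Tac1, so the order of the receptor and the peptide was the other way round there; this difference was not tested.

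On the GRCm38 genome (Ensembl 75), Drd1 (ENSMUSG00000021478) lies on the minus strand at chr13:54051186-54055658, beside Sfxn1 (ENSMUSG00000021474), which lies on the plus strand at chr13:54071845-54108346. Tac1 (ENSMUSG00000061762) is at chr6:7554879-7565834 and Chrm4 (ENSMUSG00000040495) at chr2:91922189-91928688, both on the plus strand. Isl1 (ENSMUSG00000042258) is at chr13:116298281-116309685 and Eya1 (ENSMUSG00000025932) at chr1:14168954-14310199, both on the minus strand. Ebf1 (ENSMUSG00000057098) is at chr11:44617317-45004995 on the plus strand. Counts were made over whole gene intervals, introns included, and whether the counting used strand is not stated in the sources used here. The full Ebf1 interval also holds the short Ebf1 entry (ENSMUSG00000078561) and Gm12158, so its reads can be shared with them. The other 6 intervals overlapped no other entry of the table.

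Of these genes, Tac1, Sfxn1 and Chrm4 were higher after loss of Hdac2 on average, as described further on, and their start sites are shown for that reason. The sequences are the bases upstream of the RefSeq start (GRCm38.p6, 250 bases or the part of them outside annotated exons), read 5′ to 3′ on the strand of the gene, and the capitals mark CGTCA, the core of a cyclic AMP response element on the reverse strand, and GGGCGG, a GC box.
Tac1, chr6:7554811-7554878, plus strand: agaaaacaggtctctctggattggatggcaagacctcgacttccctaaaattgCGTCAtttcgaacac
Chrm4, chr2:91921939-91922188, plus strand: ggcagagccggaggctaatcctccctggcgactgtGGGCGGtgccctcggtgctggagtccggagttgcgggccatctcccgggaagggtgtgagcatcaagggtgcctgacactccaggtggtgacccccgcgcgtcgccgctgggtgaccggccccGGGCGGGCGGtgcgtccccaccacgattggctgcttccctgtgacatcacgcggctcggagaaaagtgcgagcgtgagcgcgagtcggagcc
Sfxn1, chr13:54071595-54071844, plus strand: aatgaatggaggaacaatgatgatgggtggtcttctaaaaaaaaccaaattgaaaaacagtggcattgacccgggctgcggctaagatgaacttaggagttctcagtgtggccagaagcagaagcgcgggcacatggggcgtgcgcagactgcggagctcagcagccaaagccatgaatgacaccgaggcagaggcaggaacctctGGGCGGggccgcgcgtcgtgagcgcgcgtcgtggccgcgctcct
RefSeq windows were found for 6 of the 7 genes. Within 250 bases before a start, TGACG or its reverse CGTCA was found in 2 genes, Tac1 (193 bases before the start, the match printed, and 39 bases) and Isl1, and it occurs in 17.8% of the 32851 windows of all genes. GGGCGG or CCGCCC was found in 4 genes, namely Chrm4 (210, 87 and 83 bases before the start, the last pair overlapping), Tac1 (102 bases), Sfxn1 (39 bases) and a second start of Drd1 (128 bases), against 32.7% of all windows. The full TGACGTCA was in none of them and in 1.55% of all windows, and CACGTG was in the window of Tac1 and in 6.02% of all windows. These are letter matches only.

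To ask how loss of Hdac2 in MSNs changed these genes, Hdac2 KO mice were compared with Hdac2 WT mice on each Htt background. Tac1 was higher in Hdac2 KO striata on both backgrounds, by 20.7% in Htt+/+ and by 22.3% in HttQ111/+ mice. Chrm4 rose in Htt+/+ mice by 12% and Sfxn1 rose in HttQ111/+ mice by 17.6%. With normal huntingtin, 2 of the 7 genes passed the adjusted threshold of 0.05, both upward, where 17.8% of all genes tested passed it in either direction and 9.06% upward. In HttQ111/+ mice 2 of 7 passed, again upward, against 16.5% of all genes in either direction and 7.68% upward. The median change of the 7 full entries was 0.08 (that of Isl1) in Htt+/+ and 0.06 (that of Drd1) in HttQ111/+ mice. The medians over all genes tested were 0.00 in both. The groups of the 2 comparisons have no library in common. Both fits took their surrogate variables and spread from all 35 libraries, however, so the comparisons are not independent of each other.

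**Figure D1:**
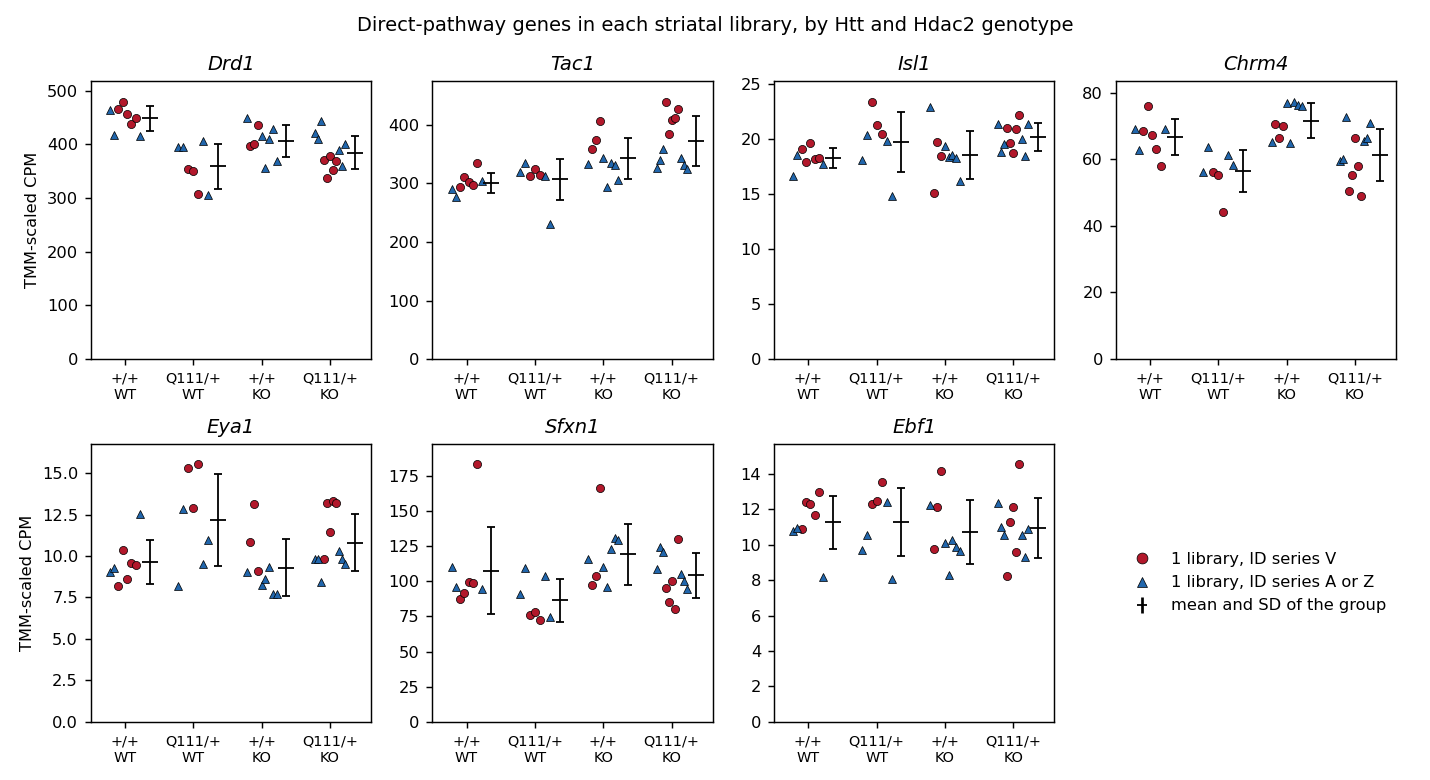
TMM-scaled CPM (vertical axis, linear from 0) of the 7 direct-pathway genes in each striatal library, by Htt genotype (+/+ or Q111/+) and Hdac2 genotype (WT or KO). Circles are libraries of ID series V, triangles are libraries of series A and Z, and the cross with bars is the mean and SD of the group; Drd1 does not overlap between the Htt+/+ and HttQ111/+ libraries with normal Hdac2, and the Tac1 libraries of series V are the highest in both Hdac2 KO groups.

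For Tac1, the level in Htt+/+ Hdac2 WT was 277 CPM at the lowest, 300.1 at the median and 335 at the highest. In Htt+/+ Hdac2 KO these were 294, 335 and 408 CPM. The ranges overlapped, but the middle library of the Hdac2 KO group was level with the highest of the Hdac2 WT group. In HttQ111/+ mice Tac1 went from 231, 314 and 336 CPM with normal Hdac2 to 325, 358 and 439.9 CPM without it. There most Hdac2 KO libraries lay above every Hdac2 WT library. The fitted log2 changes were 0.27 (SE 0.0494, adjusted p = 0.000171, edgeR) in Htt+/+ and 0.29 (SE 0.0438, adjusted p = 1.52e-05, edgeR) in HttQ111/+ mice. Averaged over both backgrounds the peptide gene rose by 0.29 (adjusted p = 4.64e-07, edgeR). Without the 3 libraries with cortical markers the changes were 0.28 in both, and without the 2 libraries high in Sfxn1 they were 0.25 and 0.27, all called. With no surrogate variables the change in Htt+/+ mice was 0.18 and missed the threshold (adjusted p = 0.0518, edgeR).

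The change in Tac1 could not be separated from the date of RNA extraction. With the date in place of the surrogate variables its log2 change was 0.03 (SE 0.101, adjusted p = 0.901, edgeR) in Htt+/+ and 0.10 (SE 0.105, adjusted p = 0.723, edgeR) in HttQ111/+ mice. On both dates with libraries of both genotypes, the 1 Hdac2 KO library fell inside the range of the 5 Hdac2 WT libraries, at 326 CPM against 231 to 335 CPM and at 307 CPM against 293 to 314 CPM. Both of these Hdac2 KO libraries belonged to series A and Z, whereas the 5 Hdac2 WT libraries of the second date were all of series V. The Hdac2 WT libraries of each date held both Htt genotypes.

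The size of the Tac1 change also went with the ID series. Among Hdac2 WT libraries Tac1 had a median of 313 CPM in series V (293 to 335) and of 304 CPM in series A and Z (231 to 336), so the series overlapped. Among Hdac2 KO libraries it had 359 to 439.9 CPM in the 8 libraries of series V and 294 to 358 CPM in the 12 of series A and Z. Without Hdac2, then, the lowest library of series V, at 359.5 CPM, lay just above the highest of series A and Z, at 358.4 CPM. The share of all genes that separate the series in this way was not counted. In a fit with terms for the series and its products with both genotypes, which was added after the data were seen and used 8 surrogate variables, Tac1 rose by 0.34 on the log2 scale (SE 0.0432, adjusted p = 2.61e-06, edgeR) in series V, where 9.28% of genes were called. In series A and Z it rose by 0.17 (SE 0.0398, adjusted p = 0.00409, edgeR), where 15.2% were called. That call in series A and Z was lost without the 2 libraries high in Sfxn1 (0.11, adjusted p = 0.0579, edgeR) and with males only (0.16, adjusted p = 0.0974, edgeR). The difference of 0.18 (95% confidence interval 0.09 to 0.27) had an unadjusted p of 0.000442 and did not pass the adjustment (adjusted p = 0.370, edgeR). No gene passed it for that difference, and 6.65% had an unadjusted p under 0.05.

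Sfxn1 was the most variable of the 7 genes in Htt+/+ Hdac2 WT, with 87.5 CPM at the lowest, 97.2 at the median and 183 at the highest. Htt+/+ Hdac2 KO libraries had 96.0, 116 and 166 CPM. Each of these groups held 1 library far above the rest. In HttQ111/+ mice the serine carrier gene had 72.7, 77.8 and 109 CPM with normal Hdac2 and 80.2, 100.3 and 130.4 CPM without it. The change was 0.23 (SE 0.0732, adjusted p = 0.0255, edgeR) in HttQ111/+ and 0.23 (SE 0.0825, adjusted p = 0.0553, edgeR) in Htt+/+ mice, of almost equal size with only the first past the threshold. Averaged over both backgrounds Sfxn1 rose by 0.24 (adjusted p = 0.00444, edgeR). The call in HttQ111/+ mice was lost without the 3 libraries with cortical markers (0.22, adjusted p = 0.0698, edgeR), with no surrogate variables (0.26, adjusted p = 0.164, edgeR) and in 5 of the 13 remaining settings. Without the 2 libraries high in Sfxn1 the change in Htt+/+ mice was 0.28 and passed (adjusted p = 0.0141, edgeR). On the shared date with an Htt+/+ Hdac2 KO library, Sfxn1 was at 129.7 CPM in it and at 72.7 to 98.7 CPM in the 5 Hdac2 WT libraries. That Hdac2 KO library was of series Z, while the 5 Hdac2 WT libraries were all of series V and of both Htt genotypes. The lowest of them, at 72.7 CPM, was HttQ111/+. On the other shared date the Hdac2 KO library, at 109 CPM, was inside the range of 74.2 to 183 CPM.

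The Sfxn1 call in Htt+/+ mice was met when any 1 of 7 libraries was left out, namely Htt+/+ Hdac2 WT replicate 1, 6 or 8 or Htt+/+ Hdac2 KO replicate 3, 5, 7 or 9, with changes of 0.24 to 0.39 and adjusted p from 0.00109 to 0.0452 (edgeR). With the extraction date fitted instead, the Sfxn1 changes were 0.34 (SE 0.205, adjusted p = 0.388, edgeR) in Htt+/+ and 0.43 (SE 0.218, adjusted p = 0.350, edgeR) in HttQ111/+ mice, neither of them called. In the fit with products of the ID series, Sfxn1 had changes of 0.40 in series V (adjusted p = 0.00766, edgeR) and 0.39 in series A and Z (adjusted p = 0.00301, edgeR). Both calls were lost in 5 of 8 other settings, with changes as low as 0.12 (adjusted p = 0.639, edgeR) and 0.05 (adjusted p = 0.823, edgeR), both with males only.

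Chrm4 had 58.0, 67.9 and 75.9 CPM at the lowest, median and highest of Htt+/+ Hdac2 WT and 65, 70.7 and 77.3 CPM in Htt+/+ Hdac2 KO. In HttQ111/+ mice it had 44.3, 56.1 and 63.7 CPM with normal Hdac2 and 49.1, 60.2 and 72.9 CPM without it. Both pairs of groups overlapped over most of their range. The M4 receptor gene rose by 0.16 (SE 0.0570, adjusted p = 0.0445, edgeR) in Htt+/+ mice and averaged 0.12 over both backgrounds (adjusted p = 0.0283, edgeR). In HttQ111/+ mice its change was 0.09 (95% confidence interval −0.02 to 0.19, adjusted p = 0.264, edgeR). The call in Htt+/+ mice was lost in 11 of 15 other settings, among them the fits without the 3 libraries with cortical markers (0.18, adjusted p = 0.116, edgeR) and without the 2 high in Sfxn1 (0.12, adjusted p = 0.215, edgeR). The average over both backgrounds was lost in 10 of 14 other settings, with changes of 0.03 to 0.17 and adjusted p of up to 0.691 (edgeR). With the extraction date the Chrm4 changes were 0.14 (SE 0.113, adjusted p = 0.531, edgeR) in Htt+/+ and 0.19 (SE 0.120, adjusted p = 0.489, edgeR) in HttQ111/+ mice. In the fit with products of the ID series they were 0.20 (adjusted p = 0.0425, edgeR) in series V, a call lost in 5 of 8 other settings, and 0.13 (adjusted p = 0.129, edgeR) in series A and Z. The call in Htt+/+ mice was also lost without any 1 of 11 libraries, namely Htt+/+ Hdac2 WT replicate 1, 2, 7, 8 or 9 or Htt+/+ Hdac2 KO replicate 2, 3, 4, 6, 7 or 9, with changes of 0.04 to 0.18 and adjusted p from 0.0514 to 0.756 (edgeR).

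Drd1, the receptor that defines the pathway, was not called after loss of Hdac2. It had 415, 452 and 479 CPM (lowest, median and highest) in Htt+/+ Hdac2 WT and 357, 409 and 448 CPM in Htt+/+ Hdac2 KO, and the fitted change was −0.03 (95% confidence interval −0.14 to 0.07, adjusted p = 0.725, edgeR). With no surrogate variables the same change was −0.15 (adjusted p = 0.0581, edgeR), and it passed when only these 2 groups were fitted (−0.13, adjusted p = 0.0111, edgeR) and without the mice with 1 floxed allele (−0.16, adjusted p = 0.0215, edgeR). In HttQ111/+ mice Drd1 had 306, 353 and 406 CPM with normal Hdac2 and 338, 377 and 442 CPM without it, a fitted change of 0.06 (95% confidence interval −0.04 to 0.15, adjusted p = 0.458, edgeR). Whether Drd1 was called in Htt+/+ Hdac2 KO thus depended on the covariates and on the libraries fitted.

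The genes of the transcription factors and of the co-activator were not called. Isl1 had means of 18.2 and 18.5 CPM in Htt+/+ Hdac2 WT and KO and of 19.7 and 20.2 CPM in HttQ111/+ Hdac2 WT and KO, with changes of 0.08 and 0.01. Ebf1 had medians of 11.3 and 10.1 CPM and of 12.3 and 10.9 CPM in the same order, with changes of 0.03 and 0.04. Eya1 had medians of 9.36 and 9.05 CPM and of 12.8 and 9.84 CPM, with changes of −0.01 and 0.03. The 95% confidence intervals reached from −0.10 to 0.22 for Isl1, from −0.09 to 0.15 for Ebf1 and from −0.25 to 0.24 for Eya1 over both backgrounds, so Eya1 was the least closely measured. In HttQ111/+ mice the Eya1 estimate turned to −0.18 with no surrogate variables, sex or the ID series and to −0.47 (SE 0.166, adjusted p = 0.143, edgeR) with the extraction date, none of them called. The short Ebf1 entry, at 0.0364 to 0.557 CPM over all libraries, was not called in any comparison.

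**Figure D2:**
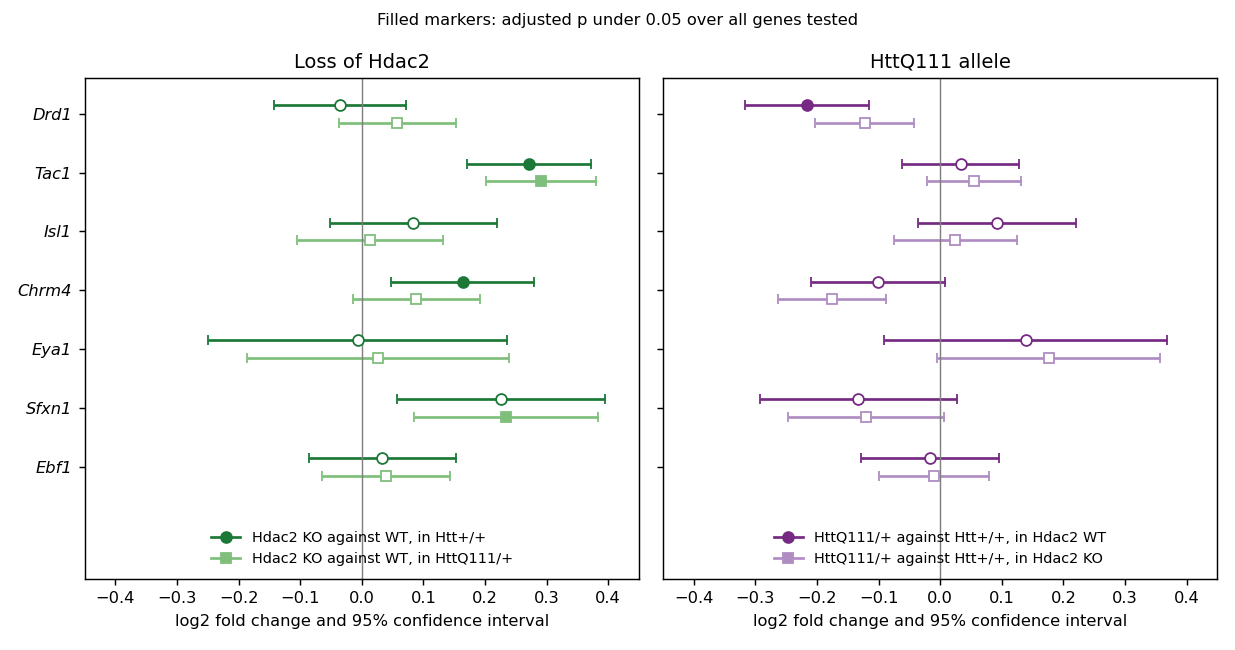
Fitted log2 fold change with its 95% confidence interval (horizontal axis) of the 7 direct-pathway genes, for Hdac2 KO against Hdac2 WT on each Htt background (left) and HttQ111/+ against Htt+/+ on each Hdac2 background (right). Filled markers passed an adjusted p of 0.05 over all genes tested: Tac1 on both Htt backgrounds, Chrm4 in Htt+/+ and Sfxn1 in HttQ111/+ mice on the left, and Drd1 with normal Hdac2 on the right.

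The second question was how the HttQ111 allele changed these genes. With normal Hdac2, Drd1 was lower in HttQ111/+ striata by 13.9%, the only 1 of the 7 genes called, where 0.403% of all genes were called in either direction and 0.222% were lower. With Hdac2 deleted, none of the 7 was called by edgeR, where 0.00584% of all genes were. At an unadjusted p under 0.05 it gave 2, Drd1 and Chrm4, where 7.52% of all genes passed, and DESeq2 called 1 of them (Chrm4, adjusted p = 0.0309), where it called 0.263% of all genes. Averaged over both Hdac2 backgrounds Drd1 and Chrm4, the pair of receptor genes, were lower, 2 of 7 against 1.27% of all genes in either direction and 0.836% lower. The median change of the 7 full entries, that of Ebf1 in both, was −0.02 with normal Hdac2 and −0.01 with Hdac2 deleted. The median over all genes tested was 0.00 in both.

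The 8 Htt+/+ Hdac2 WT libraries had 415, 452 and 479 CPM of Drd1 (lowest, median and highest) and the 7 HttQ111/+ Hdac2 WT libraries 306, 353 and 406 CPM. Every HttQ111/+ library was therefore below every Htt+/+ library, as was the case for 0.0642% of all genes tested. The log2 change was −0.22 (SE 0.0492, adjusted p = 0.0439, edgeR). With Hdac2 deleted, Drd1 had 357, 409 and 448 CPM in Htt+/+ and 338, 377 and 442 CPM in HttQ111/+ mice, and these ranges overlapped. The change there was −0.12 (95% confidence interval −0.20 to −0.04, adjusted p = 0.328, edgeR). On average over both backgrounds Drd1 fell by 0.17 on the log2 scale (SE 0.0316, adjusted p = 0.00403, edgeR), and this average passed in all 14 other settings, from −0.24 to −0.16.

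The Drd1 call with normal Hdac2 lay close to the threshold. It was lost without the 3 libraries with cortical markers (−0.21, adjusted p = 0.103, edgeR), without the 2 libraries high in Sfxn1 (−0.20, adjusted p = 0.107, edgeR), with males only (−0.21, adjusted p = 0.209, edgeR), with no count filter (−0.22, adjusted p = 0.0594, edgeR) and when only the groups compared were fitted (−0.24, adjusted p = 0.172, edgeR). It was also lost without any 1 of 9 libraries, namely Htt+/+ Hdac2 WT replicate 1, 4, 5, 6, 7 or 9 or HttQ111/+ Hdac2 WT replicate 3, 4 or 5, with changes of −0.22 to −0.17 and adjusted p from 0.0514 to 0.350 (edgeR).

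Chrm4 was lower by 0.14 on the log2 scale in HttQ111/+ mice on average (SE 0.0347, adjusted p = 0.0370, edgeR). Its medians were 67.9 and 56.1 CPM in Htt+/+ and HttQ111/+ mice with normal Hdac2 and 70.7 and 60.2 CPM with Hdac2 deleted. Each pair of groups overlapped, and neither comparison alone was called, at −0.10 (adjusted p = 0.512, edgeR) and −0.18 (adjusted p = 0.141, edgeR). Over 15 other settings the change with normal Hdac2 ran from −0.28 to −0.08. It was called in 2 of them, with the ID series and without the mice with 1 floxed allele (lowest adjusted p = 0.0131, edgeR). The average was not called with males only (−0.15, adjusted p = 0.182, edgeR), with no count filter (−0.14, adjusted p = 0.125, edgeR), without the 3 libraries with cortical markers (−0.14, adjusted p = 0.128, edgeR) or without the 2 libraries high in Sfxn1 (−0.14, adjusted p = 0.110, edgeR).

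The other 5 genes were not called for the HttQ111 allele. Tac1 had an average change of 0.04 (95% confidence interval −0.02 to 0.10), Isl1 of 0.06 (−0.02 to 0.14) and Ebf1 of −0.01 (−0.09 to 0.06). For the peptide gene a change as large as that seen on loss of Hdac2 thus lay outside the interval. Sfxn1 had an average change of −0.13 (−0.23 to −0.02, adjusted p = 0.267, edgeR) and Eya1 of 0.16 (0.01 to 0.31, adjusted p = 0.357, edgeR). Eya1 was called with the ID series (0.27, adjusted p = 0.0202, edgeR) or the extraction date (0.30, adjusted p = 0.0127, edgeR) in place of the surrogate variables.

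When HttQ111/+ Hdac2 KO mice were compared with Htt+/+ Hdac2 WT mice, 2 of the 7 genes were called against 21.2% of all genes. Tac1 rose by 0.32 (SE 0.0471, adjusted p = 6.42e-06, edgeR) and Drd1 fell by 0.16 (SE 0.0495, adjusted p = 0.0195, edgeR), so in this fit the peptide gene rose and the receptor gene fell. These groups are also part of the comparisons above, and their libraries are shared with them. Drd1 was not called there with males only (−0.17, adjusted p = 0.0566, edgeR), with total counts in place of TMM (−0.10, adjusted p = 0.125, edgeR) or with the extraction date (−0.21, adjusted p = 0.225, edgeR). With the date Tac1 was not called there either (0.12, adjusted p = 0.583, edgeR).

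Whether the effect of 1 genotype differed with the other was tested as an interaction. None of the 7 genes was called by edgeR or by DESeq2, and none had an unadjusted p under 0.05, against 0.00577% of all genes called by edgeR and 5.63% with an unadjusted p under 0.05. The estimates ran from −0.07 for Isl1 to 0.09 for Drd1. For Drd1 the 95% confidence interval was −0.03 to 0.22 and for Tac1 it was −0.09 to 0.14, so differences between backgrounds within these bounds were not excluded.

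**Figure D3:**
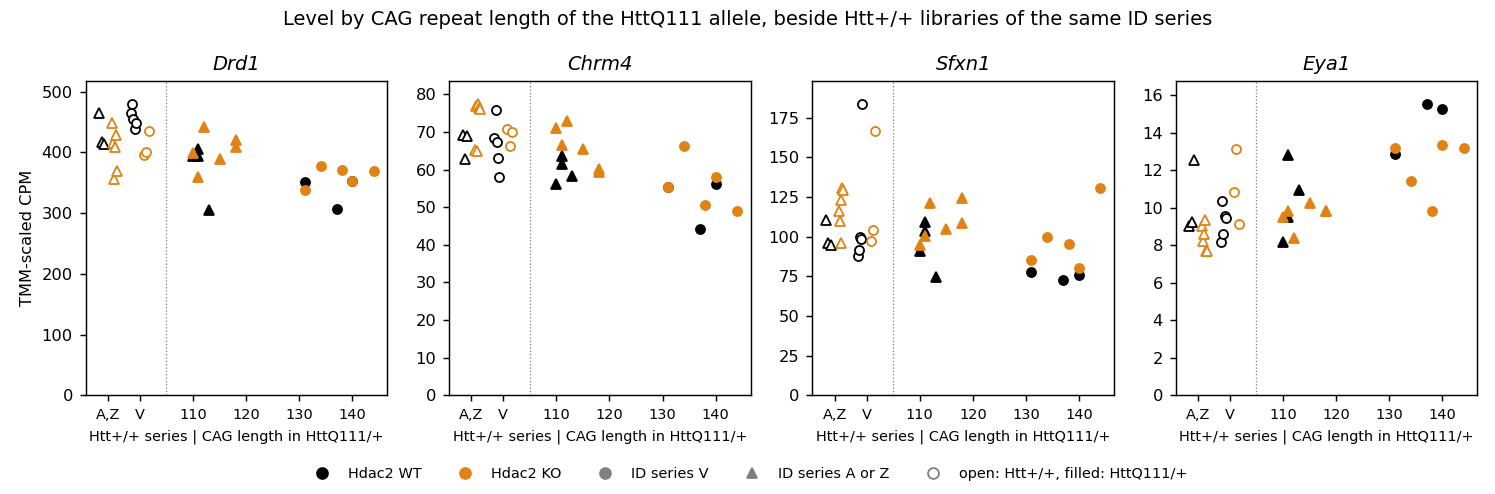
TMM-scaled CPM (vertical axis, linear from 0) of Drd1, Chrm4, Sfxn1 and Eya1 in each library, with Htt+/+ libraries at the left by ID series (open) and HttQ111/+ libraries placed by CAG repeat length (filled). Circles are series V, triangles are series A and Z, black is Hdac2 WT and orange is Hdac2 KO; the HttQ111/+ libraries of series V sit between 307 and 377 CPM of Drd1, all below the Htt+/+ libraries of that series.

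The HttQ111 effect was also compared between mice with longer and with shorter repeats, in the fit with ID series added after the data were seen. The repeat length and the ID series cannot be told apart, and series V held 13 males and 3 females against 9 males and 10 females in series A and Z. In series V, Drd1 had 396, 443 and 479 CPM (lowest, median and highest) in 8 Htt+/+ libraries and 307, 353 and 377 CPM in 8 HttQ111/+ libraries. In series A and Z it had 357, 416 and 464 CPM in 9 Htt+/+ libraries and 306, 397 and 442 CPM in 10 HttQ111/+ libraries. The genotypes did not overlap in series V and overlapped widely in series A and Z. The share of all genes whose genotypes do not overlap in series V was not counted. The log2 change was −0.30 (SE 0.0319, adjusted p = 2.05e-07, edgeR) in series V, where 6.51% of all genes were called, and −0.10 (SE 0.0269, adjusted p = 0.277, edgeR) in series A and Z, where 0.167% were called. The difference itself was −0.21 (SE 0.0399, adjusted p = 0.00643, edgeR), where 1.05% of all genes were called. Without the 3 libraries with cortical markers the difference was −0.28 (adjusted p = 0.000865, edgeR) and without the 2 high in Sfxn1 −0.25 (adjusted p = 0.0475, edgeR). It kept its size but was not called with no surrogate variables (−0.21, adjusted p = 0.437, edgeR), with sex as the covariate (−0.21, adjusted p = 0.361, edgeR) or with males only (−0.24, adjusted p = 0.397, edgeR).

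Of the other 6 genes none was called for that difference. Chrm4 was lower in HttQ111/+ mice of series V by 0.23 (95% confidence interval −0.34 to −0.12, adjusted p = 0.00644, edgeR) and changed by −0.08 in series A and Z (adjusted p = 0.875, edgeR). Its medians were 67.9 and 55.4 CPM in Htt+/+ and HttQ111/+ libraries of series V and 69.1 and 62.6 CPM in those of series A and Z. The difference for Chrm4, −0.15 (95% confidence interval −0.28 to −0.01), did not pass the adjustment (adjusted p = 0.380, edgeR), but did so when the model had no product of series and Hdac2 (−0.27, adjusted p = 0.0197, edgeR) and without the 3 libraries with cortical markers (−0.29, adjusted p = 0.0168, edgeR).

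Sfxn1 was lower in HttQ111/+ mice of series V, by 0.36 (SE 0.0796, adjusted p = 0.00513, edgeR), with medians of 99.2 CPM in Htt+/+ and 82.8 CPM in HttQ111/+ libraries. Both libraries that stood high in Sfxn1 are Htt+/+ libraries of series V, and without them the change was −0.20 (adjusted p = 0.278, edgeR). It was not called either without the 3 libraries with cortical markers (−0.18, adjusted p = 0.25, edgeR) or with males only (−0.12, adjusted p = 0.536, edgeR). In series A and Z the change was −0.01 (adjusted p = 0.998, edgeR), and the difference of −0.34 between the series was not called (adjusted p = 0.0993, edgeR).

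Eya1 had medians of 9.52 and 13.2 CPM in Htt+/+ and HttQ111/+ libraries of series V and of 9.02 and 9.81 CPM in those of series A and Z. Its change of 0.35 in series V did not pass (adjusted p = 0.0576, edgeR), nor did the difference of 0.21 between the series (adjusted p = 0.612, edgeR). With no surrogate variables the change in series V passed (0.40, adjusted p = 0.00985, edgeR). The changes of Tac1, Isl1 and Ebf1 in series V were 0.09, 0.12 and −0.05, and their differences between the series were 0.03, 0.11 and −0.07, none of them called.

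Other genes of the same neurons were examined next. Of 4 further genes of direct-pathway neurons (Pdyn, the dynorphin precursor, Slc35d3, Zfp521 and Foxp2), none was called for Hdac2 loss in Htt+/+ mice or for the HttQ111 allele with normal Hdac2, and Foxp2, which encodes a transcription factor, fell on loss of Hdac2 in HttQ111/+ mice (−0.12, adjusted p = 0.00360, edgeR). Pdyn had changes on loss of Hdac2 of 0.26 (adjusted p = 0.139, edgeR) in Htt+/+ and 0.16 (adjusted p = 0.355, edgeR) in HttQ111/+ mice. The median of the 4 was −0.03 for Hdac2 loss in Htt+/+ and −0.04 for the HttQ111 allele with normal Hdac2, beside medians of 0.00 over all genes tested in both. The 4 genes summed to 192 to 337 CPM in Htt+/+ Hdac2 WT and to 197 to 349 CPM in Htt+/+ Hdac2 KO, and the 2 libraries high in Sfxn1 were the highest of their groups both in this sum and in Tac1 (335 and 408 CPM).

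Of 17 genes that carry the D1 signal inside the neuron, 2 rose and 4 fell on loss of Hdac2 in Htt+/+ mice, where 17.8% of all genes were called, and the median change was −0.03. Gng7, the G-protein subunit that pairs with the D1 receptor's alpha subunit, rose by 0.24, and so did Ppp1r1b (0.24), the phosphatase regulator downstream of cyclic AMP. A fragment of Ppp1r1b is part of the Cre transgene that only Hdac2 KO mice carry, and its part in the Ppp1r1b counts was not tested. Rasgrp2, an exchange factor for Rap, fell by 0.35 and Gnao1, a G-protein alpha subunit of inhibitory receptors, by 0.21. In HttQ111/+ mice 2 rose and 3 fell, where 16.5% of all genes were called, with a median of −0.03.

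With the HttQ111 allele and normal Hdac2, 3 of the same 17 genes fell and none rose, where 0.403% of all genes were called, with a median of −0.06. These were Pde10a (−0.33), which breaks down cyclic nucleotides, Ppp1r1b (−0.28) and Pde1b (−0.26), a second phosphodiesterase. With Hdac2 deleted none of the 17 was called and the median was −0.04. On average over both backgrounds 6 of 17 fell and none rose, where 1.27% of all genes were called, Adcy5, the main striatal adenylyl cyclase, among them (−0.21, adjusted p = 0.00372, edgeR). Of 11 genes expressed in both MSN classes, some of them in this list too, 7 fell and none rose on average, with a median of −0.20, so Drd1 and Chrm4 were not alone among MSN genes. Of the 5 cortical markers none was called, with a median of −0.29 for the HttQ111 allele and −0.18 for loss of Hdac2 on average; their part in these results was not tested.

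Of 21 paralogues of the 7 genes, 17 were tested. On loss of Hdac2 in Htt+/+ mice none rose and 3 fell, a share near the 17.8% of all genes called, namely Chrm1 (−0.14), Sfxn4 (−0.16) and Drd2 (−0.17), with a median of −0.04. In HttQ111/+ mice 2 fell, where 16.5% of all genes were called, namely Chrm1 (−0.16) and Chrm5 (−0.94). Chrm5 was measured at no more than 1.42 CPM in any library. For the M4 gene's own relative Chrm1, the change was thus downward on both backgrounds, while Chrm4 itself had positive estimates on both. The difference between these genes was not tested. For the HttQ111 allele none was called on either Hdac2 background. On average Drd2 fell (−0.16, adjusted p = 0.0125, edgeR), where 1.27% of all genes were called. Of the receptors for the peptides made from Tac1, Tacr1 and Tacr3 were tested and neither was called in these comparisons.

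**Figure D4:**
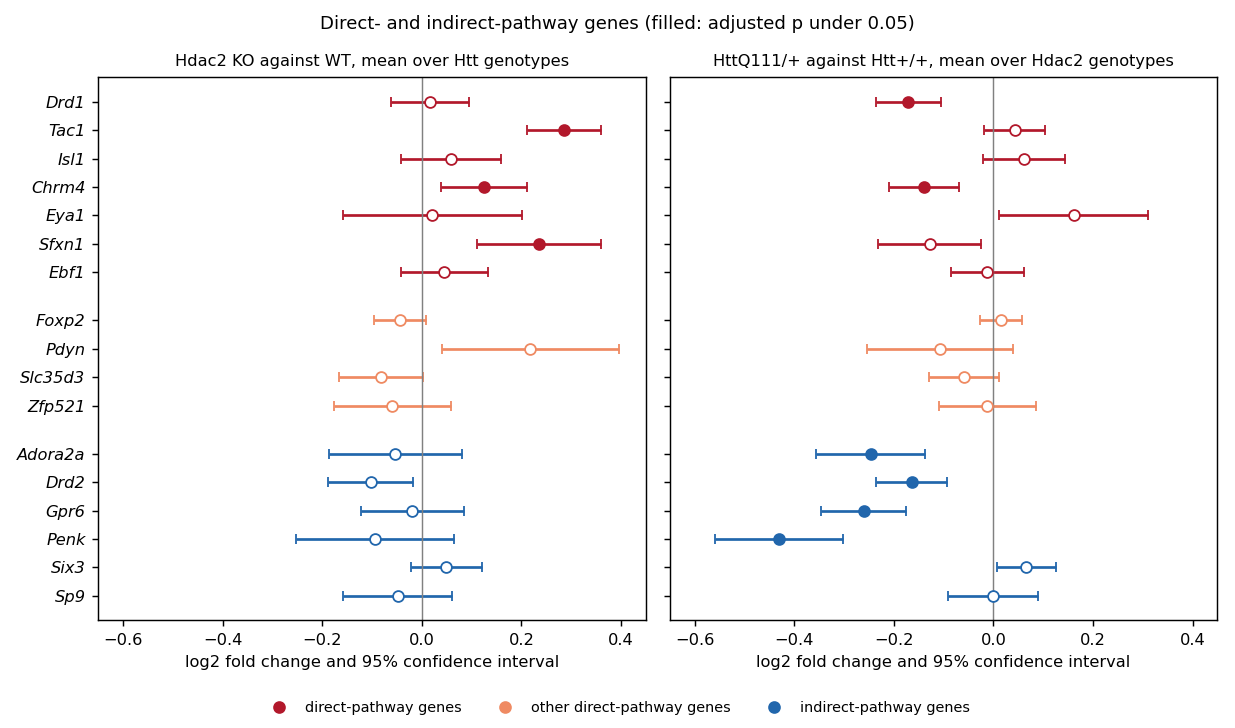
Fitted log2 fold change with its 95% confidence interval (horizontal axis) of the 7 direct-pathway genes, 4 further direct-pathway genes and 6 indirect-pathway genes, averaged over the backgrounds, for Hdac2 KO (left) and HttQ111/+ (right). Filled markers passed an adjusted p of 0.05: Tac1, Chrm4 and Sfxn1 on the left, and on the right Drd1 and Chrm4 beside Adora2a, Drd2, Gpr6 and Penk.

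Genes of the indirect pathway were set beside those of the direct pathway. Of 6 indirect-pathway genes found of 7 listed, none was called for Hdac2 loss on average (median −0.05). Of the 7 direct-pathway genes 3 were called, all upward, against 25% of all genes tested in either direction and 12.9% upward. With the extraction date none of these 3 was called, and Chrm4 was lost in 10 of 14 other settings. The 4 further direct-pathway genes had none called on average either, with 1 positive and 3 negative estimates and a median of −0.05. For the HttQ111 allele on average, 4 of 6 indirect-pathway genes fell, where 1.27% of all genes were called and 0.836% were lower, with a median of −0.21. Penk, the enkephalin precursor, fell by 0.43 (adjusted p = 0.000491, edgeR) and Gpr6, an orphan receptor, by 0.26 (adjusted p = 0.000912, edgeR). Drd1, at −0.17, was close to the D2 receptor gene Drd2, at −0.16. No test was made of the difference between these lists.

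The ratio of Tac1 to Penk, the peptide genes of the 2 classes, had a mean of 0.157 ± 0.00906 (SD, n = 8) in Htt+/+ Hdac2 WT and of 0.183 ± 0.0220 (SD, n = 9) in Htt+/+ Hdac2 KO. It was 0.244 ± 0.0572 (SD, n = 7) in HttQ111/+ Hdac2 WT and 0.266 ± 0.0652 (SD, n = 11) in HttQ111/+ Hdac2 KO. Every HttQ111/+ Hdac2 WT library, from 0.188 upward, lay above the 0.173 of the highest Htt+/+ Hdac2 WT library. The ratio of Drd1 to Drd2 had means of 1.93, 2.00, 1.97 and 2.07 in Htt+/+ Hdac2 WT, HttQ111/+ Hdac2 WT, Htt+/+ Hdac2 KO and HttQ111/+ Hdac2 KO and SDs of 0.16 to 0.20. These ratios of CPM are not corrected for gene length and were not tested.

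The 7 genes were also compared from mouse to mouse. Over the 35 libraries, which share groups, series and dates, the Pearson correlation of log2 CPM was 0.59 between Drd1 and Chrm4 and 0.53 between Drd1 and Sfxn1. Eya1 ran against both receptor genes, at −0.58 with Drd1 and −0.60 with Chrm4. Between Drd1 and Tac1 the correlation was −0.04. Once the group means were removed, it was 0.18 for Drd1 and Tac1, 0.46 for Drd1 and Chrm4, 0.50 for Drd1 and Sfxn1, 0.51 for Isl1 and Ebf1, −0.47 for Drd1 and Eya1 and −0.42 for Chrm4 and Eya1.

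Among 13675 genes, those most like Drd1 over the 35 libraries were Arpp21 (r = 0.93), Zswim6 (0.91) and Kdm3a (0.88). Those most like Chrm4 were Syndig1l (0.86), Adcy5 (0.85) and Ddn (0.83). Sfxn1 was most like Lrrk2 (0.89), Ebf1 most like Appl1 (0.83), Tac1 most like Gm20503 (0.79), Eya1 most like Polr2a (0.78) and Isl1 most like Cntn6 (0.76). With the group means removed, Arpp21 (0.88) and Zswim6 (0.86) were still the closest to Drd1, whereas for Tac1 the closest were Nsg2 (0.78), Prpsap2 (0.77) and Arl6 (0.77). The likeness of Drd1 to Arpp21 and Zswim6 thus held within groups, while Rmnd5a (0.82) took the place of Kdm3a. That of Tac1 passed to other genes.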

How the data were processed

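Per the labels and the study's methods, libraries were made from striatal total RNA with a stranded mRNA kit, reads were aligned to GRCm38 (Ensembl 75) with GSNAP (also named in the submitters' processing notes), and the authors deposited raw counts of unique alignments over whole gene intervals, made with bedtools. Whether the counting used strand is not given in the sources used here. Introns count toward a gene, so unspliced RNA adds to each value.

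Of 39109 entries, 92 spike-ins, 6152 entries spanning at most 250 bases and 2 mitochondrial rRNA genes were left out, and 32863 were kept. The span limit stands in for a removal list of the study that was not used here whole. Groups came from the labels. Genes were tested if each library of 1 or more of the groups compared held 6 counts or more, with edgeR 4.0.16 in R 4.3.3 (TMM, quasi-likelihood F test, Benjamini-Hochberg adjustment, threshold 0.05), with all 35 libraries, the 4 groups and 9 surrogate variables from svaseq (sva 3.50.0) in each fit. The genes named are all 7 members and, of each listed set, up to 4 members past the threshold with the largest change; the genes most like a member are the 3 with the highest r (average log2 CPM of at least 1). Pdyn, Adcy5 and the tachykinin receptors were named as well after their values were seen. The members and lists were chosen with earlier results of these data known. One gene of the list of cortical markers is not reported here and was left out of its sums. The alternatives were other covariates, normalizations, libraries and filters, and DESeq2 1.42.0. The fits with ID series and those without libraries that stood apart were added after the data were seen. The fits for the HttQ111 allele with normal Hdac2 and for the series difference were also run on simulated data, and the outcome is not given here. That simulation held no Hdac2 effect and no extraction date, so it cannot speak to them. No pair of libraries of 1 group was a duplicate (chi-square per degree of freedom 7.23 to 74.3 over 140 pairs).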

Additional observations from a re-analysis of the deposited data

Results flagged for a closer look

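Each of the 8 entries was examined for a library far from the others in groups of 4 to 10 libraries. HttQ111/+ Hdac2 KO, with 11 libraries, was thus not examined. Of these 24 sets of values, 5 held such a library. Chance alone marks about 1 set in 20, but the sets reuse the same libraries and are not independent. Tac1 was at 231 CPM in HttQ111/+ Hdac2 WT replicate 7, against 313 CPM in the next library. That library also had the highest sum of cortical projection neuron markers, 412 CPM; its part in the Tac1 value was not tested. Chrm4 was at 44.3 CPM in HttQ111/+ Hdac2 WT replicate 5, against 55.4 CPM in the next. Sfxn1 was at 183 CPM in Htt+/+ Hdac2 WT replicate 8, against 111 CPM in the next, and at 166 CPM in Htt+/+ Hdac2 KO replicate 4, against 131 CPM in the next. Ebf1 was at 8.16 CPM in Htt+/+ Hdac2 WT replicate 9, against 10.8 CPM in the next.

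The HttQ111 effect on Drd1 differed between ID series V and series A and Z by −0.21 on the log2 scale in the test of that difference (adjusted p = 0.00643, edgeR).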

How the results depend on the processing

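Of 1400 values of a member in a comparison under another setting, none that was called in either fit changed sign, and 131 that were called in neither did. The counts of the 7 genes called moved by over 1.5 times in these settings. For Hdac2 loss in Htt+/+ mice (2 as reported) the count was 0 with no surrogate variables or with the extraction date, and 1 with sex, the ID series, or without the 3 libraries with cortical markers. For Hdac2 loss in HttQ111/+ mice (2) it was 0 with the extraction date and 1 with no surrogate variables, sex, the ID series, only the groups compared, or without the 3 libraries with cortical markers. For the HttQ111 allele with normal Hdac2 (1) it was 0 with only the groups compared, males only, no count filter, and without the 3 libraries with cortical markers or the 2 high in Sfxn1, 2 with the extraction date or without the mice with 1 floxed allele, and 3 with the ID series. For the HttQ111 allele with Hdac2 deleted (0) it was 1 with DESeq2. For both genotypes together (2) it was 0 with the extraction date, 1 with males only or total counts, and 4 with only the groups compared. For the average HttQ111 effect (2) it was 1 with males only, no count filter, and without the cortical or the Sfxn1 libraries. For the average Hdac2 effect (3) it was 1 with no surrogate variables, sex or the ID series and 0 with the extraction date. The Drd1 difference between the series was not called with no surrogate variables (−0.21), sex (−0.21), males only (−0.24) or the replicate block (−0.21). The cause was not tested. Smaller moves were to 3 for Hdac2 loss in Htt+/+ mice with only the groups compared, total counts or DESeq2, to 3 for the average HttQ111 effect with the extraction date or the ID series (Eya1 added), to 3 for both genotypes together with the ID series (Chrm4 added), and to 2 for the average Hdac2 effect (Chrm4 lost) with males only, no count filter, or without the mice with 1 floxed allele, the cortical or the Sfxn1 libraries.

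The replicate numbers were not taken to pair the mice. Deviations of libraries with the same number had a mean correlation of 0.0791 over 45 pairs, with 23 above 0.1. Those with different numbers had −0.0072 over 410 pairs, with 166 above 0.1, and the difference was not tested. With a replicate block in place of the surrogate variables, 1 gene was called for Hdac2 loss in Htt+/+ (Drd1), in HttQ111/+ (Tac1) and on average (Tac1), and the other counts stayed as reported. Leaving out each library in turn moved the change of Tac1 on Hdac2 loss in Htt+/+ mice from 0.19 to 0.29, called each time, and that of Drd1 with the HttQ111 allele and normal Hdac2 from −0.30 to −0.17, called in 6 of 15. Each of the 7 genes had at least 377 counts in every library, whereas the short Ebf1 entry had 2 to 30. That entry had an SE of 0.41 for Hdac2 loss in Htt+/+ mice.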
